A study of Canis lupus familiaris with 60 samples.

Results

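CD28, ICOS, LCK, CD4 and CD8A are genes of T cells, and they were followed here in the skin of Beagle dogs challenged with the house dust mite Dermatophagoides farinae. The members were all probes of a custom canine array whose transcript identifier was a dog RefSeq transcript of one of the 5 genes, or to which the study's table of differentially expressed genes gave one of the 5 symbols. That rule found 9 of 60068 probes, of which 8 were well above background often enough to be tested. CD28, CD4 and the RefSeq probe of ICOS were each read by 1 probe, CD8A by 2 and LCK by 3, and 1 further probe, TC77470, was tied to ICOS only by the study's table.

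Skin was biopsied from 6 sensitized dogs (4 males and 2 females), which had been exposed to the mite through the skin weekly for 8 weeks, and from 6 nonsensitized control dogs (2 males and 4 females), all aged 2 to 3 years. From each dog 5 biopsies were taken, of untreated skin (0 hr) and of sites patched with 75 mg of mite paste (allergen) or 50 μl of saline at 6 hr and 24 hr, on a part of the chest clipped 4 days earlier. Patched sites were also bandaged, and each biopsy site received lidocaine. The array of specimen 14 (24 hr allergen, sensitized dog 2839) was left out for degraded RNA, weak signal and low correlation with the other arrays, the grounds on which the study excluded it, so that 59 of 60 arrays were used and sensitized dogs had 5 arrays at the 24 hr allergen site and 6 in each other group. Sex was not balanced between the groups, and its part in any result was not tested.

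T cells recognize peptide on MHC molecules through the T cell receptor. CD4 and CD8A are coreceptors that mark the helper and cytotoxic lineages and hold LCK, the Src family kinase that phosphorylates the receptor complex at the start of signalling. CD28 delivers the second, costimulatory signal after binding CD80 or CD86 on antigen presenting cells, and ICOS is a relative of CD28 that appears on T cells once they have been activated. In dogs CD4 is also carried by neutrophils. CD28, the inhibitory receptor gene CTLA4 and ICOS lie next to each other in the dog genome. In whole skin, more T cells and more RNA of a gene per T cell cannot be told apart.

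All values are scaled log2 signals: the fluorescence of a probe after variance stabilization, so that a difference of 1 is a doubling for bright probes and stands for more than a doubling near background, so that differences and folds of dim probes are understated. A difference was called when limma's adjusted p was below 0.05 and it was at least 1.5-fold. Over the 59 arrays, 68.85% to 80.15% of spots were well above background. The T cell label could not be checked against the usual markers, because none of the 6 genes chosen for that (the CD3 chains CD3D, CD3E and CD3G, CD247, CD2 and CD5) had a probe with a symbol here. The arrays were spread over 8 slides by time point: 24 hr biopsies filled slides 1 to 3 (1 further array was on slide 8), 6 hr biopsies lay on slides 4 to 8, and untreated skin was confined to slides 6 to 8. Slides 1 to 6 held both allergen and saline sites, but 4 allergen arrays lay on slides 7 and 8, which held no saline site. Among them was 1 of the 5 arrays of 24 hr allergen sites of sensitized dogs. Untreated and 24 hr arrays shared a slide only through that exception.

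**Figure D1:**
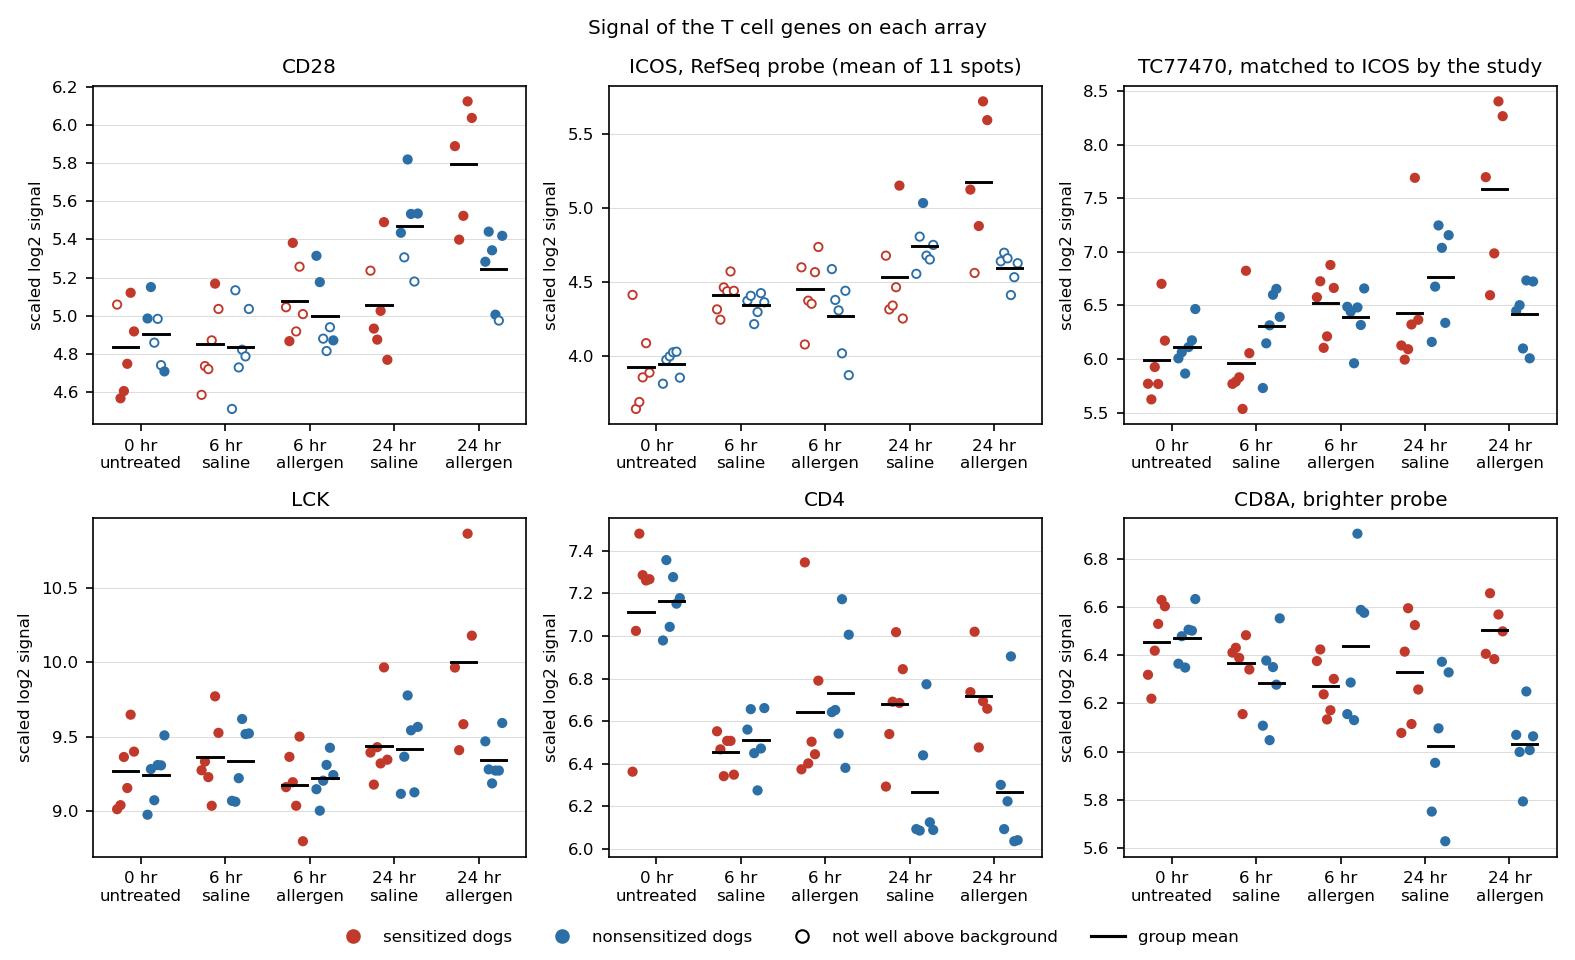
Scaled log2 signal (vertical axes, each panel with its own range) of the T cell genes on each of the 59 arrays, by time and patch (horizontal axes); points are dogs, open where the probe was not well above background, and bars are group means. CD28, ICOS, TC77470 and LCK had their highest mean at the 24 hr allergen site of sensitized dogs, whereas CD4 was highest in untreated skin of both groups.

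CD28, ICOS and LCK had their highest group mean at the 24 hr allergen sites of sensitized dogs, and the lineage gene CD4 had it in untreated skin. CD8A was also highest at those allergen sites, but its main probe exceeded the next group, untreated skin of nonsensitized dogs, by only 0.03 (6.50, SD 0.11, against 6.47, SD 0.10). The dimmer CD8A probe exceeded its next group by 0.19 (SD 0.38). For LCK the step to the next group was 0.56 (SD 0.57) and for the ICOS RefSeq probe 0.43 (SD 0.49), neither beyond that spread. Before challenge no difference was detected: in untreated skin 0 of 4 genes with a tested main probe (CD28, LCK, CD4, CD8A) was called, where 0.00218% of all probes were called. The differences between sensitized and nonsensitized dogs were -0.07 (SE 0.13) for CD28, 0.03 (SE 0.16) for LCK, -0.05 (SE 0.15) for CD4 and -0.02 (SE 0.11) for CD8A, with an unadjusted p of at least 0.601 for each.

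CD28 was called for allergen against saline at 24 hr in sensitized dogs. Its signal at the 24 hr allergen sites of the sensitized dogs 2838, 2840, 2841, 2853 and 2855 was 5.89, 5.40, 5.52, 6.12 and 6.04. At their saline sites the lowest, median and highest of the 6 values were 4.77, 4.98 and 5.49. Of these 5 allergen values 4 lay above every saline value, and that of dog 2840 lay below the highest of them. In nonsensitized dogs the lowest, median and highest values were 4.97, 5.31 and 5.44 with allergen and 5.18, 5.48 and 5.82 with saline, so that the saline sites were the higher ones there.

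CD28 rose by 0.74 (SE 0.14), or 1.67-fold, from saline to allergen at 24 hr in sensitized dogs (limma, adjusted p = 0.00288), a comparison in which 0.274% of all probes were called. The allergen site was higher in 5 of 5 sensitized dogs, by 0.50 to 1.27. In nonsensitized dogs the difference was -0.22 (SE 0.13, adjusted p = 0.556), the allergen site was higher in 1 of 6 dogs, and none of CD28, CD4 and CD8A was called beside 0.766% of all probes. The 24 hr interaction, which is the allergen minus saline difference of sensitized dogs minus that of nonsensitized dogs, was 0.96 (SE 0.19, adjusted p = 0.00801). It was called for 1 of these 3 genes and for 0.935% of all probes. TC77470, ICOS and LCK were given no test at 24 hr, for reasons stated with each. CD28, ICOS and LCK were listed by the study for this interaction on these same arrays, so their values in it are not independent evidence.

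The CD28 response rested in part on dog 2855, which had the largest difference. Without it the difference in sensitized dogs was 0.62 (adjusted p = 0.0880) and the interaction 0.85 (adjusted p = 0.0718), neither of them called. On the 2 slides that held both sites of sensitized dogs, the difference was 0.62 on slide 2 (1 allergen and 2 saline arrays) and 0.92 on slide 3 (3 and 3 arrays). With normexp background correction and quantile normalization the difference shrank to 0.36 and the interaction to 0.47, with adjusted p = 0.00123 and 0.00469, both below 1.5-fold.

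**Figure D2:**
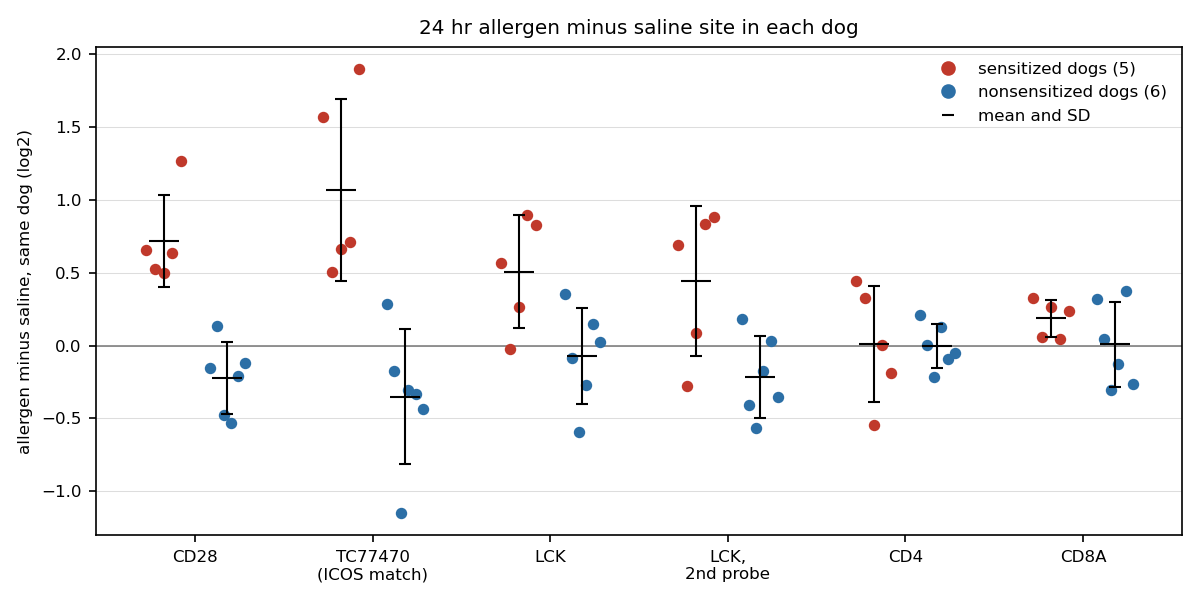
Allergen minus saline difference at 24 hr within each dog (vertical axis, log2) for 6 member probes (horizontal axis); points are the 5 sensitized and 6 nonsensitized dogs with both arrays, and black marks are mean and SD. For CD28 the sensitized dogs lie between 0.50 and 1.27 and the nonsensitized dogs between -0.53 and 0.14, whereas the dogs of both groups overlap for CD4, CD8A and both LCK probes shown.

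The CD28 probe was dim: it was well above background on 33 of 59 arrays, among them all 5 of the 24 hr allergen sites of sensitized dogs and none of the 6 saline sites at 6 hr of nonsensitized dogs. In order of group mean, the 24 hr allergen site of sensitized dogs (5.795 ± 0.32, SD, n = 5) came first. The 24 hr saline site of nonsensitized dogs was next (5.47 ± 0.22, SD, n = 6), followed by the 24 hr allergen site of nonsensitized dogs (5.24 ± 0.20, SD, n = 6). The steps between these 3 groups were 0.33 and 0.22, each just above both SDs, but the values of neighbouring groups overlapped. The second step is the allergen against saline difference of nonsensitized dogs, which was not called. Further down neighbouring groups did not differ beyond their spread.

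ICOS was close to the limit of the array. Its RefSeq probe was printed on 11 spots, none of which was well above background on 5 arrays of any group, so the gene did not enter the test. The mean over its spots at the 24 hr allergen sites of sensitized dogs 2838, 2840, 2841, 2853 and 2855 was 5.13, 4.56, 4.88, 5.72 and 5.60, and it was well above background in 4 of these 5 dogs. Elsewhere it was well above background on 2 arrays, both of 24 hr saline sites, 1 of a sensitized dog (5.15) and 1 of a nonsensitized dog (5.04). The probe was measurable mainly where it was highest, so no test is given for it in the main setting.

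The ICOS signal at the 24 hr allergen sites of sensitized dogs averaged 5.18 ± 0.49 (SD, n = 5), compared with 4.53 ± 0.34 (SD, n = 6) at their saline sites and 4.60 ± 0.11 (SD, n = 6) at the allergen sites of nonsensitized dogs. The probe was well above background on 1 of those 6 saline arrays and on none of the 6 nonsensitized allergen arrays. No untreated array of sensitized dogs (mean 3.93) was well above background, so only a rough comparison can be given. Those arrays were set at their detection limit (the lowest signal of any spot well above background on the array, where that was higher). The mean ICOS signal at the 24 hr allergen site was then 1.63-fold higher, and 1.21-fold against allergen sites of nonsensitized dogs set likewise. Neither is a strict lower bound, because the probe was well above background in only 4 of the 5 dogs in that mean. Untreated and 24 hr arrays also lay largely on different slides.

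The probe TC77470, which the study's table matched to human ICOS, carries another tentative annotation in the same table, phosphorylase kinase beta, and was therefore kept apart. It was bright enough on all 59 arrays. It read 7.70, 6.60, 6.99, 8.40 and 8.27 at the 24 hr allergen sites of the 5 sensitized dogs, and at their saline sites the lowest, median and highest values were 5.99, 6.23 and 7.69. Its differences were 1.16 (SE 0.26) from saline to allergen in sensitized dogs, -0.35 (SE 0.25) in nonsensitized dogs and 1.51 (SE 0.35) in the interaction. They are given with no test, because this probe is a member only through the study's list for that interaction. Over the 59 arrays TC77470 and the ICOS RefSeq probe correlated with r = 0.74, as a description over arrays that share dogs and slides.

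LCK was read by its main probe (XM_846879) well above background on 59 of 59 arrays. That transcript is named LCK here only through an accession in the study's list for the 24 hr interaction, although the probe itself is not in that list. Its differences that involve 24 hr arrays are therefore given with no test. It read 9.96, 9.41, 9.58, 10.86 and 10.18 at the 24 hr allergen sites of sensitized dogs 2838, 2840, 2841, 2853 and 2855. At their saline sites the lowest, median and highest values were 9.18, 9.37 and 9.96, and at the allergen sites of nonsensitized dogs 9.19, 9.28 and 9.59. The 2 highest allergen values of sensitized dogs stood above every saline value, and the other three overlapped with the saline sites.

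Between the 24 hr allergen sites of sensitized and nonsensitized dogs the mean LCK signal differed by 0.65 (SE 0.16), or 1.57-fold. From saline to allergen in sensitized dogs the difference was 0.56 (SE 0.16), with the allergen site higher in 4 of 5 dogs. In nonsensitized dogs it was -0.07 (SE 0.16), higher in 3 of 6. The LCK interaction was 0.63 (SE 0.23).

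The 5 biopsies of a dog come from the same animal, and when each dog was given its own term the LCK interaction was 0.61. It was 0.73 with slide as a fixed block and 0.61 with slide as a random block. The difference between allergen sites rested in part on dog 2853, the dog with the highest value: without it the difference was 0.44. It was 0.51 when the 3 LCK probes were averaged.

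Both other LCK probes carry the same Ensembl transcript (ENSCAFT00000016931), which is itself in the study's list, and they are described with no test. The brighter one (mean 6.35) had an interaction of 0.71 (SE 0.21) and followed the main probe over the arrays (r = 0.86). The dimmer one (mean 4.96), well above background on 33 of 59 arrays, had an interaction of 0.26 (SE 0.19) and followed it less closely (r = 0.58).

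Neither lineage gene was called for allergen against saline at 24 hr. CD4 read 6.74, 7.02, 6.48, 6.69 and 6.66 at the allergen sites of sensitized dogs 2838, 2840, 2841, 2853 and 2855, and 6.29, 6.69 and 7.02 (lowest, median and highest) at their saline sites. The brighter CD8A probe read 6.41, 6.66, 6.38, 6.57 and 6.50 there, and 6.08, 6.34 and 6.59 at the saline sites. For both genes the values of the 2 sites overlapped.

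From saline to allergen at 24 hr in sensitized dogs, CD4 differed by 0.04 (95% interval -0.29 to 0.36) and CD8A by 0.17 (95% interval -0.06 to 0.41). In nonsensitized dogs the values were -0.00 (95% interval -0.31 to 0.31) for CD4 and 0.01 (95% interval -0.21 to 0.23) for CD8A. The interactions were 0.04 (SE 0.22, adjusted p = 0.977) for CD4 and 0.16 (SE 0.16, adjusted p = 0.756) for CD8A. The dimmer CD8A probe had a wider interval in sensitized dogs, from -0.17 to 0.64. Within sensitized dogs, the brighter CD8A probe was higher with allergen in 5 of 5 dogs, by 0.04 to 0.33, and CD4 in 3 of 5, with differences of -0.54 to 0.44. In nonsensitized dogs each was higher in 3 of 6. The CD28 differences of 0.50 to 1.27 in sensitized dogs lay above those of CD4 and of the brighter CD8A probe, and overlapped with the -0.36 to 0.80 of the dimmer one. The difference between genes was not tested.

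At the 24 hr allergen sites themselves, CD4 and CD8A were higher in sensitized than in nonsensitized dogs, by 0.45 (SE 0.16, adjusted p = 0.0371) and 0.47 (SE 0.12, adjusted p = 0.00300), both under 1.5-fold. CD28 was likewise higher by 0.55 (SE 0.14, adjusted p = 0.00315), just under that limit, so none of the 3 was called, where 7.13% of all probes were. At the saline sites the lineage genes differed between sensitized and nonsensitized dogs by 0.41 (adjusted p = 0.0957) for CD4 and 0.31 (adjusted p = 0.0818) for CD8A, and neither passed the test. Within slides the CD8A difference was 0.11 on slide 1, 0.58 on slide 2 and -0.07 on slide 3. At these saline sites CD28 was lower in sensitized dogs, by -0.41 (adjusted p = 0.0459), and LCK differed by 0.02. None of CD28, CD4 and CD8A was called at the saline sites, where 2.37% of all probes were. With slide as a fixed block the allergen sites differed by 0.62 for CD28 (adjusted p = 0.0139), which was called beside 3.80% of all probes, by -0.01 for CD4 (adjusted p = 0.976) and by 0.29 for CD8A (adjusted p = 0.140). With slide as a random block none of the 3 was called, beside 4.57%. With arrays scaled to their 75th percentile, where 10.3% of all probes were called, all 3 were, CD28 at 0.96, CD4 at 0.59 and CD8A at 0.64.

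The groups of dogs were spread unevenly over the slides. Of the allergen sites at 24 hr, 4 of the 6 nonsensitized arrays lay on slide 1, which held no sensitized array of that site. On the 2 slides that held both groups, CD4 differed between sensitized and nonsensitized allergen sites by 0.18 on slide 2 (1 and 1 arrays) and by -0.21 on slide 3 (3 and 1 arrays). For CD8A the differences there were 0.31 and 0.24, for CD28 0.24 and 1.01, and for LCK 0.12 and 1.06.

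At 6 hr no member was called for allergen against saline in either group, where 0.418% (sensitized) and 0.0348% (nonsensitized) of all probes were called. CD28 differed by 0.23 (SE 0.13) in sensitized and 0.16 (SE 0.13) in nonsensitized dogs, and LCK by -0.19 (SE 0.16) and -0.11 (SE 0.16). The CD28 probe was well above background on 1 of 6 sensitized and 0 of 6 nonsensitized 6 hr saline arrays, so the sizes of its differences are uncertain. TC77470 differed by 0.56 (SE 0.25) in sensitized dogs, higher in 6 of 6, and by 0.08 (SE 0.25) in nonsensitized dogs. The 6 hr interaction was called for 0 of 4 genes and 0% of all probes by limma. Of all 45972 probes, 525 had an unadjusted p below 0.05 there, with none of the 4 genes among them.

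Against untreated skin, CD28 was called higher in sensitized dogs and CD4 lower in nonsensitized dogs. At the 24 hr allergen sites of sensitized dogs CD28 was higher by 0.96 (SE 0.14, adjusted p = 4.26e-07), the 1 of CD28, CD4 and CD8A that was called, where 13.8% of all probes were. The LCK difference was 0.73 (SE 0.16). CD4 was lower by -0.40 (SE 0.16, adjusted p = 0.0452), under 1.5-fold, and CD8A differed by 0.05 (SE 0.12, adjusted p = 0.764). At the allergen sites of nonsensitized dogs CD4 fell by 0.90 (SE 0.15, adjusted p = 6.21e-06), the 1 of the 3 genes called beside 17.0% of all probes. The brighter CD8A probe was lower there by -0.44 (SE 0.11, adjusted p = 0.00101), where the dimmer one was higher in 6 of 6 dogs, by 0.55 on average. The dimmer probe was well above background on only 1 of the 6 untreated arrays of these dogs. CD28 was higher by 0.34 (SE 0.13, adjusted p = 0.0286). Both the CD28 and the brighter CD8A difference were under 1.5-fold.

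The saline sites, which are compared with the same untreated arrays, showed part of this pattern. In nonsensitized dogs CD4 fell by 0.90 (SE 0.15, adjusted p = 3.38e-06) at 24 hr, the 1 gene called beside 22.7% of all probes, and CD28 was higher by 0.56 (SE 0.13, adjusted p = 0.000271), just under 1.5-fold. In sensitized dogs no gene was called, beside 9.49% of all probes, and CD28 differed by 0.22 (SE 0.13, adjusted p = 0.192) and CD4 by -0.44 (SE 0.15, adjusted p = 0.0249). At 6 hr CD4 fell at the saline sites of both groups, by 0.66 (SE 0.15, adjusted p = 0.00444) in sensitized and by 0.65 (SE 0.15, adjusted p = 0.00536) in nonsensitized dogs. It was the 1 gene of 4 called in each, where 2.65% and 2.26% of all probes were called, and was below 1.5-fold without dog 2840 (-0.56) or dog 2802 (-0.58), respectively. At the 6 hr allergen sites no gene was called, beside 3.87% and 1.61% of all probes.

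**Figure D3:**
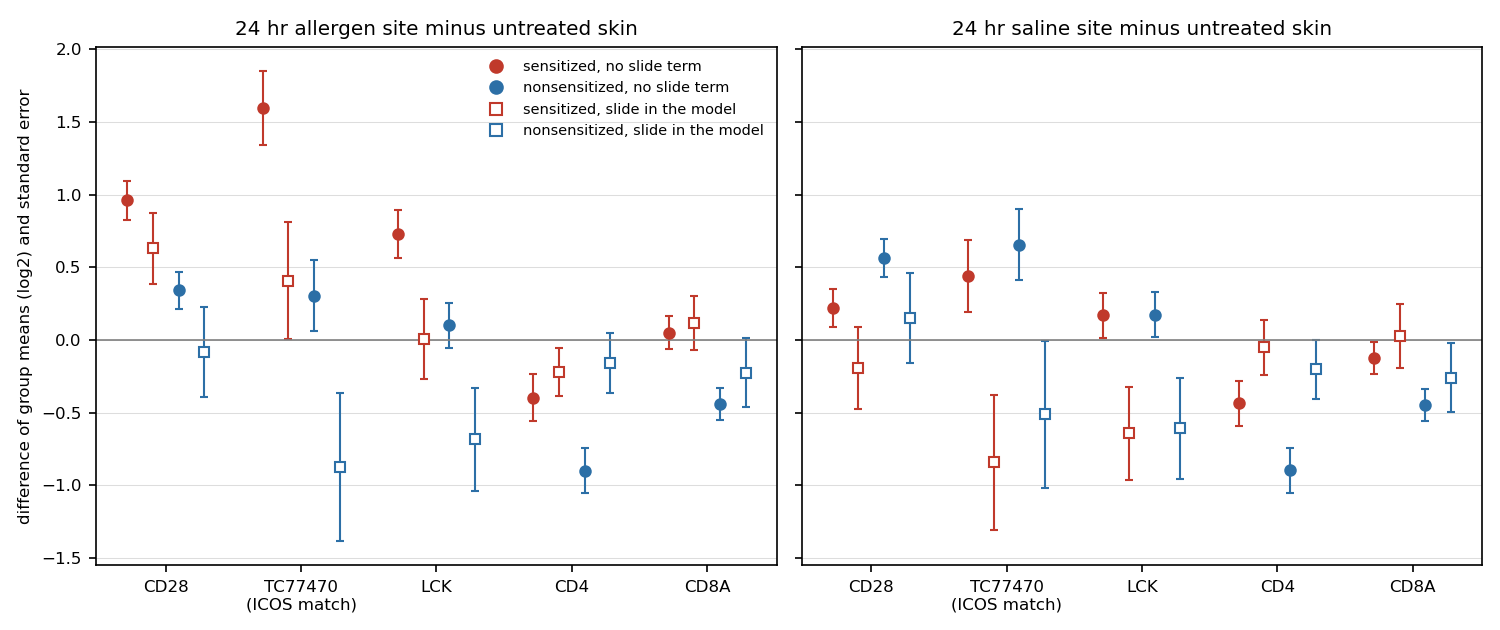
Difference of group means between 24 hr sites and untreated skin (vertical axis, log2, bars 1 standard error) for 5 member probes (horizontal axis), at allergen sites (left) and saline sites (right); filled circles are from the model without slide and open squares from the model with slide as a block. CD4 in nonsensitized dogs moves from -0.90 to -0.16 with allergen and to -0.20 with saline once slide is in the model, and LCK in sensitized dogs from 0.73 to 0.01 with allergen.

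These changes from untreated skin cannot be told apart from the slides. With slide in the model none of CD28, CD4 and CD8A was called against untreated skin at 24 hr or 6 hr. The same model called 12.3% (sensitized) and 2.10% (nonsensitized) of all probes at 24 hr allergen sites, 8.09% and 3.33% at 24 hr saline sites, and 0.411% and 0.0152% at 6 hr allergen sites. For 6 hr saline sites limma called 0% in both groups of dogs, with 2468 and 2224 probes at an unadjusted p below 0.05. CD4 in nonsensitized dogs was at -0.16 (adjusted p = 0.774) with allergen, CD28 in sensitized dogs at 0.63 (adjusted p = 0.0655), and LCK in sensitized dogs at 0.01. The untreated CD4 arrays on slides 7 and 8 read 6.98 to 7.48, but the 1 untreated array on slide 6 read 6.36, within the 6.35 to 6.79 of the 6 hr arrays on that slide. The 6 hr allergen array of a sensitized dog on slide 7 read 7.35 and the 24 hr allergen array on slide 8 read 7.02, both within that range of untreated skin.

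**Figure D4:**
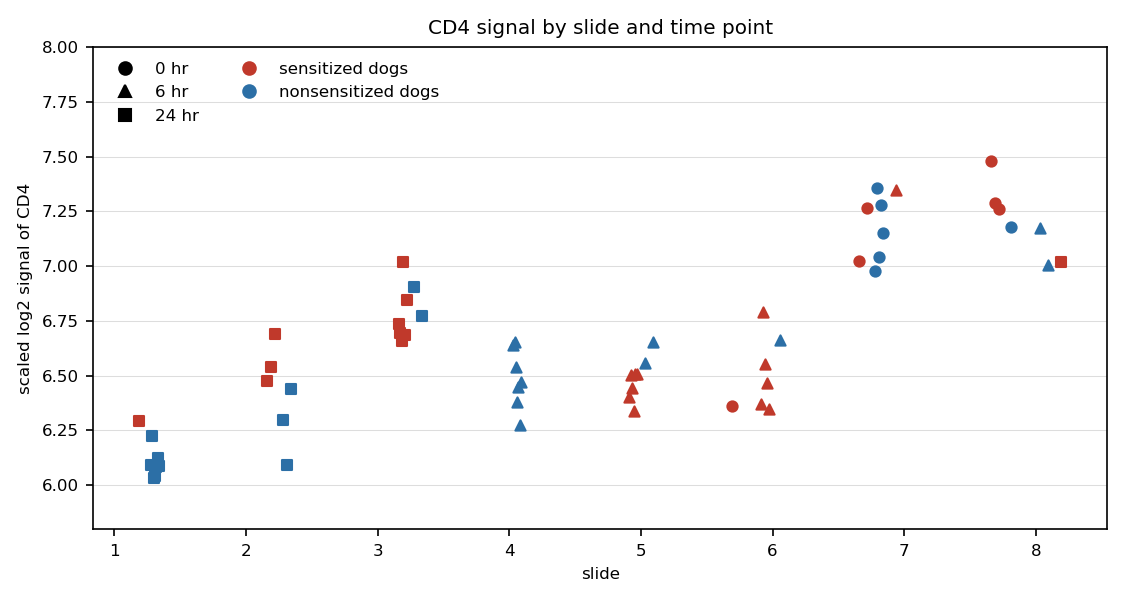
Scaled log2 signal of CD4 (vertical axis) on each of the 59 arrays by slide (horizontal axis), with marker shape for time point and colour for the group of dogs. Slide means run from 6.12 on slide 1 to 7.20 on slide 8, and arrays of other time points on slides 6 to 8 lie near the untreated arrays of the same slide.

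The 2 CD8A probes disagreed. They correlated with r = 0.06 over the 59 arrays, although both carry the same RefSeq transcript. The dimmer probe, well above background on 34 of 59 arrays, reached the limit of 5 arrays only at the 24 hr sites of sensitized dogs, where it was high, so its values are given with no test. It differed from untreated skin by 0.83 (SE 0.20) at the 24 hr allergen sites and by 0.60 (SE 0.19) at the saline sites of sensitized dogs, where the brighter probe differed by 0.05 and -0.12. In nonsensitized dogs the directions were opposite: the dimmer probe differed by 0.55 and 0.61, and the brighter one by -0.44 and -0.45. The dimmer probe was well above background on 4 of 6 untreated arrays of sensitized dogs and 1 of 6 of nonsensitized dogs, so the sizes of its differences are uncertain. In the 24 hr interaction the dimmer probe was at 0.30 (SE 0.28). Statements on CD8A against untreated skin therefore depend on the probe.

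Named genes of the T cell pathway were few on this array, and none of the 4 genes of the receptor complex and the 15 of proximal signalling had a symbol. Of 11 other costimulatory and inhibitory receptors 3 were measured: CTLA4, which competes with CD28 for its ligands, CD40LG, by which T cells activate B cells and dendritic cells, and TNFRSF18, a receptor of the TNF family. At the 24 hr allergen sites 2 of 3 were called, beside 7.13% of all probes, and were higher in sensitized than in nonsensitized dogs, CTLA4 by 1.19 (SE 0.35, adjusted p = 0.0120) and CD40LG by 0.75 (SE 0.21, adjusted p = 0.00775), while TNFRSF18 differed by -0.16 (SE 0.15, adjusted p = 0.436). The median of the 3 was 0.75, against 0.02 over all probes. As for the members, the groups of dogs lay unevenly over the slides in this comparison, and no values with slide in the model are given here. None of the 3 was called in the interaction, where CTLA4 was at 1.397 (SE 0.48, adjusted p = 0.132).

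Costimulatory genes of antigen presenting cells were called against untreated skin. At the 24 hr allergen sites of sensitized dogs 3 of 3 measured with a RefSeq identifier were called higher, beside 13.8% of all probes called in either direction, with a median of 1.24 against -0.03 over all probes. CD40, the receptor of CD40LG, was at 1.35 (SE 0.28, adjusted p = 0.000161). CD86 and CD80, the ligands of CD28, were at 1.24 (SE 0.27, adjusted p = 0.000249) and 0.79 (SE 0.20, adjusted p = 0.00128). None of these genes was called for allergen against saline or in the interaction at 24 hr. As for the members, these differences lie between slides.

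Of 14 genes for T cell cytokines and the IL-2 receptor 6 were measured, and 1 of the 6 was called in the 24 hr interaction, beside 0.935% of all probes. It was IL31, a T cell cytokine that causes itch, at 0.70 (SE 0.19, adjusted p = 0.0429), and it is in the study's list. Between sensitized and nonsensitized dogs at the 24 hr allergen sites 2 of the 6 were called, beside 7.13% of all probes, and the median of the 6 was 0.43. IL31 was higher in sensitized dogs by 0.83 (SE 0.14, adjusted p = 3.91e-05) and IL13, a type 2 cytokine, by 1.16 (SE 0.41, adjusted p = 0.0333). The others, IL2, IL10, IL17A and the receptor chain IL2RG, differed by -0.28 to 0.475 and were not called. Of 12 homing genes 2 were measured with a RefSeq identifier, CCR4 and CXCR3, of which 0 were called there. The T helper factor BCL6 and the granule gene PRF1 did not pass in this comparison either (-0.16 and 0.18). The groups of dogs lay unevenly over the slides in it, and the part of the slides was not tested for these genes.

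Of the markers of other cells measured with a RefSeq identifier, 1, S100A8, was called between the groups of dogs at the 24 hr allergen sites. That comparison is uneven over the slides, whose part was not tested for these markers. Of 6 neutrophil markers 2 were measured, S100A8 and CXCR2. Their mean deviation from the average array was 1.19 to 1.79 at the 24 hr allergen sites of sensitized dogs, -0.07 to 0.88 at their saline sites and -0.47 to 1.02 at the allergen sites of nonsensitized dogs. S100A8, an abundant calcium binding protein of neutrophils that keratinocytes also make, was higher by 2.56 (SE 0.69, adjusted p = 0.00639) at allergen sites of sensitized than of nonsensitized dogs, whereas the neutrophil chemokine receptor CXCR2 differed by 0.15 (SE 0.11, adjusted p = 0.324). CD163 of macrophages ranged from -0.16 to 1.24 around its average at the allergen sites of sensitized dogs and from -0.20 to 1.31 at their saline sites. In nonsensitized dogs its median was lower with allergen (0.36, range -0.29 to 0.97) than with saline (1.23, range 0.41 to 1.945). KLRD1 of natural killer cells, the 1 of 6 such markers measured, ranged from -0.40 to 1.501 with allergen and from -0.47 to 0.63 with saline in sensitized dogs, and from -0.12 to 0.39 and from -0.08 to 2.59 in nonsensitized dogs. For both genes the ranges of the 2 sites overlapped in each group of dogs.

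The mast cell markers KIT, FCER1A and MS4A2, 3 of 5 listed, had a median mean deviation of 0.485 (range -0.165 to 0.665) at the 24 hr allergen sites of sensitized dogs and of -0.07 (-0.35 to 0.46) at their saline sites. In nonsensitized dogs it was -0.05 (-0.42 to 0.27) with allergen and 0.42 (-0.05 to 0.92) with saline. None of the 3 was called in the interaction, where MS4A2, a chain of the IgE receptor that is in the study's list, was at 1.30 (SE 0.39, adjusted p = 0.0740). The keratinocyte markers KRT1 and DSG1, 2 of 6 listed, had a median of -0.34 at the allergen sites of sensitized dogs, -0.04 at their saline sites, 0.06 at the allergen sites of nonsensitized dogs and -0.22 at the saline sites of those dogs, with overlapping ranges. For dendritic cells (2 of 7 markers) and for fibroblasts and endothelium (4 of 6), the medians of the 24 hr groups lay between -0.16 and 0.10. No B cell marker passed the filter. The part of these cells in the values of the members was not tested.

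Correlations between the members are a description of 59 arrays that share dogs and slides. CD28 correlated with TC77470 (r = 0.78) and LCK (r = 0.63), TC77470 with LCK (r = 0.81), and CD4 with CD8A (r = 0.64). In the other pairs, r was -0.31 for CD28 and CD4, -0.13 for CD28 and CD8A, -0.02 for LCK and CD4, 0.31 for LCK and CD8A, -0.06 for TC77470 and CD4, and 0.18 for TC77470 and CD8A. After the mean of each group of arrays was taken out, CD28 and LCK still had r = 0.51, TC77470 and LCK r = 0.83, and CD4 and CD8A r = 0.46. CD8A then had r = 0.43 with LCK and r = 0.44 with TC77470, close to its value with CD4, whereas CD28 had r = 0.06 with CD8A and -0.21 with CD4.

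Among 1189 other named genes, those most like CD28 were MATK (r = 0.81), SLC46A3 (r = 0.80), IL13RA2 (r = 0.79), MMP25 (r = 0.79) and CFP (r = 0.78). Those most like TC77470 were the chemokine gene CCL17 (r = 0.88), the MHC class II genes DLA-DQA1 (r = 0.86) and DLA-DQB1 (r = 0.84), SLAMF1 (r = 0.85) and MATK (r = 0.85). LCK was followed most closely by LTB (r = 0.83), CCL17 (r = 0.81), NMB (r = 0.77), SLAMF1 (r = 0.76) and CD1A6 (r = 0.74).

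The genes most like CD4 were of another kind: CYP4A11, a fatty acid hydroxylase (r = 0.91), CA1, a carbonic anhydrase of red cells (r = 0.89), the serotonin receptor HTR1A (r = 0.89), the olfactory receptor OR13F1B (r = 0.89) and CPT1C, a carnitine palmitoyltransferase of brain (r = 0.88). For CD8A they were THBD (r = 0.75), NHLRC1 (r = 0.74), CPT1C (r = 0.74), ARSB (r = 0.74) and HCRT, the precursor of the hypothalamic orexins (r = 0.74).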

How the data were processed

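Cy3-labelled RNA of 60 skin biopsies was hybridized by the authors to Agilent 8x60K canine arrays. The deposited intensity values are processed signals from Agilent Feature Extraction 10.7.3.1 (submitters' processing notes), background-corrected and not scaled between arrays. A spot was kept if 5 or more arrays of some group read it well above background (47229 of 61657 spots, 45972 probes), control spots and 4588 outlier values were removed, signals were variance-stabilized as in the vsn package (reimplemented in Python 3.11.15) and spots of a probe averaged. Differences of the 10 group means were tested unpaired, as in the study's methods, with limma 3.58.1 and Benjamini-Hochberg adjustment over all probes. The number of arrays limits the precision. A gene's main probe is its brightest with a RefSeq or Ensembl identifier.

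Named were all member probes, list genes past both limits (at most 4 a list and comparison, beside the others of a short list), and the 5 named genes most correlated with each member. Symbols came from RefSeq (UU_Cfam_GSD_1.0; 1067 identifiers) or the study's table. The members and lists were chosen with earlier results of these data known. Same-dog arrays come from 1 animal (consensus residual correlation 0.28), and dog was tried as a block. The study's fold changes and p-values were not used. No probe sequences were used here.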

Additional observations from a re-analysis of the deposited data

Results flagged for a closer look

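CD28 differed between the groups of dogs in its response to allergen at 24 hr, by the test of the difference itself (interaction 0.96, SE 0.19, limma's adjusted p = 0.00801). The gene was listed by the study for this contrast on the same arrays.

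Single dogs stood apart in 3 of the 60 sets of arrays examined (6 probes in 10 groups), where chance picks about 1 in 20. Sensitized dog 2853 read 7.69 for TC77470 at the 24 hr saline site, with the next dog at 6.37, and 9.96 for LCK, with the next dog at 9.43. Nonsensitized dog 2802 read 6.9 for CD4 at the 24 hr allergen site, with the next dog at 6.3. That array was the 1 nonsensitized 24 hr allergen array on slide 3.

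Specimen 14, which was left out of the comparisons in the report, was compared after scaling it with the other 59 arrays, and the range of the 6 saline sites of sensitized dogs at 24 hr is given under the same scaling. CD28 read 5.823 against 4.655 to 5.418, and LCK 10.062 against 9.167 to 9.954. CD4 read 7.296 against 6.244 to 6.987, and CD8A 7.722 against 6.023 to 6.557. TC77470 read 6.806, inside the saline range of 5.941 to 7.668. For CD4 and CD8A specimen 14 also lay above the other 5 allergen sites, which reached 6.992 and 6.622. The array had 67.65% of its spots well above background, fewer than any of the 59 others.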

How the results depend on the processing

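Of 2155 single-gene values under the alternatives, 2073 stayed on their side of the limits (122 of them changed sign with no call under either setting), 39 lost and 41 gained a call, and 2 lost a call with a change of sign, both with slide as a block and neither called the other way: CD4 at 6 hr saline sites against untreated skin in nonsensitized dogs (0.065) and TC77470 at 24 hr saline sites (-0.51). Of 431 counts of called genes, 375 stayed within 1.5 times. These totals take in TC77470, LCK and, for counts under looser filters, ICOS, whose calls at 24 hr are not results here. The causes were not tested.

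The 24 hr calls below are those of CD28, CD4 and CD8A only, since LCK and ICOS carry no test there. The share of all probes called in the same setting stands in brackets. For allergen against saline at 24 hr in sensitized dogs CD28 was called (0.274%), but not with normexp (0.185%). It stayed called without a filter (0.161%), with a 4-array filter chosen after seeing the data (0.271%) and with the slide block (0.792%). In the 24 hr interaction CD28 was called (0.935%), but not with normexp (0.770%). It stayed called without a filter (0.393%), with the 4-array filter (0.917%) and with the slide block (2.28%). Dog as a fixed or random replicate block, which pairs the biopsies of a dog, also kept the call (3.53% and 3.09%). At 24 hr allergen sites between the groups of dogs none of these 3 genes was called (7.13%). All 3 were at the 75th percentile (10.3%) and without a fold limit. CD28 and CD8A were called without a filter (7.64%), in the series table (8.76%) and with 60 arrays (13.8%), and CD28 alone with the slide block (3.80%). None was called with the 4-array filter (7.11%), normexp (4.55%), slide as a random block (4.57%) or the mean over probes (7.12%). ICOS entered only under the looser filters, which it passed through the group where it was high.

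Against untreated skin, CD28 was called at the 24 hr allergen sites of sensitized dogs (13.8%), but not with normexp (9.12%) or the slide block (12.3%). At those of nonsensitized dogs CD4 alone was called (17.0%), also in the series table (47.2%) and with the 4-array filter (17.0%). CD8A joined it at the 75th percentile (25.0%), all 3 were called without a fold limit, and none with the slide block (2.10%). At the 24 hr saline sites of nonsensitized dogs CD4 alone was called (22.7%), also with the 4-array filter (22.8%). CD8A joined it at the 75th percentile (32.1%) and without a filter (26.8%), CD28 in the series table (51.8%), and both without a fold limit. With the slide block none was called (3.33%). Both 6 hr saline comparisons (1 gene, 2.65% and 2.26%) gave 0 with normexp (1.35% and 1.00%) or slide as a fixed (0% in both) or random block (0.0435% and 0%). Counts of 0 became 1 without a fold limit at 24 hr saline sites, between dogs and against untreated skin in sensitized dogs, and at 6 hr allergen sites of sensitized dogs, there also at the 75th percentile.

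Leaving out each dog in turn gave 0 to 1 genes for allergen against saline in sensitized dogs and for the interaction (0 without dog 2855). Between allergen sites CD28 was called without dog 2716, 2840, 2841 or 2847. The count was 1 to 2 for 24 hr saline against untreated skin in nonsensitized dogs, and 0 to 1 for 6 hr allergen (1 without dog 2839) and 6 hr saline. Signals near background limit CD28 and ICOS, which were well above it on 33 and 6 of 59 arrays.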
